A study of Mus musculus with 12 samples.

Results

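Interstitial macrophages carrying a Cx3cr1-driven deletion of Hif1a were compared with interstitial macrophages of control animals, in 6 of the 12 RNA-seq libraries of the study, 3 per genotype. The 6 libraries were chosen by their labels alone, as every library of sorted interstitial macrophages, and the other 6 come from nonclassical monocytes. The animals were mice on the C57Bl/6 background, and all of them, controls included, had lived in hypoxia for 3 weeks with a weekly dose of SU5416, an inhibitor of VEGF receptors that worsens the vascular remodelling seen in hypoxic lungs. No library of an untreated animal is part of the comparison, so the effect of the deletion was measured within that exposure.

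The deletion group carried Cx3cr1cre with both Hif1a alleles deleted and comprises the libraries IM649, IM650 and IM661, numbered as in the labels. The control group carried the same floxed Hif1a alleles without Cre and comprises IM648, IM659 and IM660. Cx3cr1 drives Cre in monocytes, macrophages and other mononuclear phagocytes, so the deletion is neither limited to interstitial macrophages nor timed to the exposure. Controls had no Cre, so an effect of the Cre allele and one of losing Hif1a cannot be told apart. About 250 cells were sorted per library, and libraries of total RNA were made with a kit that keeps the strand of the transcript. Whether each number is an animal of its own is not stated, so p-values reflect the spread between these libraries, which may be technical. The sources used here give neither the age of the animals nor the markers of the sort.

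Interstitial macrophages occupy the lung tissue outside the airspaces, around vessels, airways and nerves, where they take up debris, present antigen and release cytokines. HIF-1 pairs the oxygen-regulated subunit encoded by Hif1a with the constant subunit ARNT. In normal oxygen prolyl hydroxylases mark the subunit for destruction, whereas in hypoxia it accumulates and drives genes of glycolysis, glucose uptake, angiogenesis and cell movement. In macrophages HIF-1 also supports the glycolytic metabolism that accompanies inflammatory activation.

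The control libraries held between 13333039 and 14099509 gene counts and the deletion libraries between 7039631 and 9054232. Reads outside annotated exons made up 43.2, 38.5 and 44.2% of exonic and non-exonic reads in IM648, IM659 and IM660, and 66.7, 69.8 and 59.2% in IM649, IM650 and IM661. Every deletion library thus lay above every control library (exact two-sided permutation p = 0.1, the smallest value that 3 against 3 libraries allow). Depth, the non-exonic share and the genotype therefore moved together in the macrophages. In bulk samples of this kind, fewer cells expressing a gene and less RNA of it per cell cannot be told apart.

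**Figure D1:**
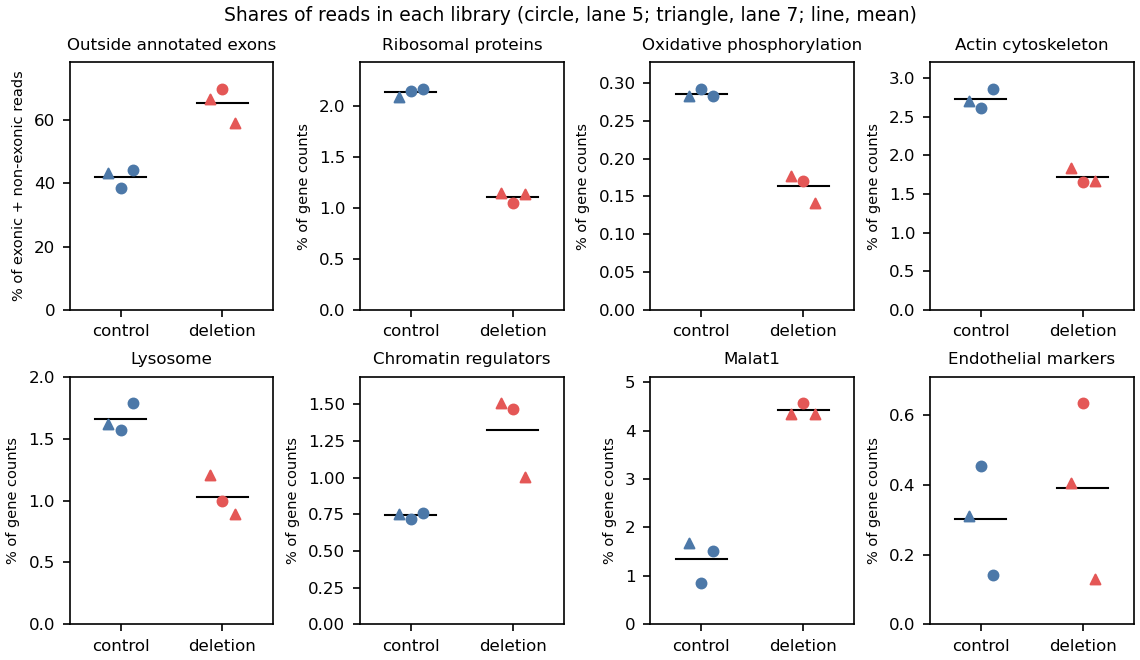
Shares of reads in each of the 6 libraries, by genotype. The first panel gives reads outside annotated exons over the sum of these reads and gene counts, in percent, and the other panels give the summed counts of a gene list, or Malat1 alone, as a percentage of gene counts; points are libraries, with shape giving the lane, and lines are means. Ribosomal proteins took 2.14 ± 0.042% of the counts in control and 1.11 ± 0.058% in deletion libraries, and the endothelial markers overlapped between the groups.

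Hif1a, the targeted gene (chromosome 12, 73901324 to 73947554, GRCm38.p6), was counted in every library. Its level was 226, 207 and 238 CPM in IM648, IM659 and IM660, and 188, 201 and 196 CPM in IM649, IM650 and IM661. CPM are read counts relative to the library size after its scaling with TMM factors. The deletion libraries all lay below the controls, by 1.15-fold (log2 fold change -0.20, SE 0.15, adjusted p = 0.493), a difference that did not pass the test. A gene-level count takes in exons on either side of a deleted one, and which exons are floxed is not stated, so excision was not measured and these values do not check the genotype. Cx3cr1, the chemokine receptor whose promoter drives Cre, was at 418, 424 and 309 CPM in the controls and 127, 171 and 288 CPM in the deletion libraries. It was lower in all 3 deletion libraries without passing the test (log2 fold change -0.97, SE 0.28, adjusted p = 0.0624). Ddx3y, a Y-linked RNA helicase, was present in all 6 libraries and Xist was at 0 to 21 counts in each, the male pattern. Ddx3y itself rose (log2 fold change 0.85, SE 0.20, adjusted p = 0.0287) and Eif2s3x, the X-linked partner of another Y-linked gene, fell (log2 fold change -0.77, SE 0.20, adjusted p = 0.0411).

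The libraries carried transcripts of macrophages, and the genes given here do not tell interstitial from other macrophages. Csf1r, the receptor of the macrophage growth factor CSF-1, was at 1652, 1681 and 1777 CPM in the controls and 951, 915 and 1419.6 CPM in the deletion libraries. Emr1, which encodes the macrophage surface protein F4/80, was at 507 ± 59.7 against 938 ± 46.7 CPM (deletion against control, mean ± SD, n = 3 per group). Per kilobase of exon the 10 most abundant protein-coding genes of the controls were Lyz2, Cd74, Apoe, Actb, Ctss, Hspa8, H2-Eb1, B2m, Eef1a1 and Psap. They include a lysozyme, antigen presentation proteins, a lipid carrier, cytoskeletal actin and a lysosomal protease. Of these 10 genes, 8 passed the test as lower in the deletion libraries, and Apoe (log2 fold change -0.52, SE 0.16, adjusted p = 0.0689) and H2-Eb1 did not pass. The 10 were ranked by their level in the controls alone, which favours genes that are lower with deletion, so this count is a description only. Beside it, 10.8% of the fifth of genes with the highest level fell, and 2.96% of all genes.

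Across all genes, the deletion libraries differed from the controls in both directions. Of 13566 genes tested with edgeR's quasi-likelihood test, 950 (7%) had a Benjamini-Hochberg adjusted p under 0.05, which is the meaning of rose, fell and passed here. The genes that rose numbered 549 (4.05%) and those that fell 401 (2.96%). The median absolute change was larger among the genes that rose (1.18 on the log2 scale) than among those that fell (0.94), and 350 rose and 150 fell by at least 2-fold. For all 950 the libraries of the groups did not overlap. By the same measure, 16.3% of all genes tested lay higher in every deletion library and 14% lower, whether or not they passed. By their file records the 6 libraries came from 2 sequencing lanes, each holding both genotypes. That all 950 genes had the same direction in both follows from the lack of overlap and tells nothing about the lanes. With lane as a covariate 556 genes passed.

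The number of genes that passed depended on the libraries and the model. Without IM649 it fell to 35, and without IM648, IM659, IM660 or IM650 it was 208, 338, 326 or 354. Without IM661, the deletion library with the lowest non-exonic share, it rose to 1636. The direction of each of the 950 genes stayed the same in all 6 of these fits. Since the groups did not overlap for any of them, this was nearly fixed in advance and is no sign of stability. With the non-exonic share as a covariate no gene passed in edgeR's fit (790 had an unadjusted p under 0.05), and 771 of the 950 kept their direction. The share had no overlap between the genotypes, so its part and that of the genotype cannot be told apart in these libraries, which holds for every result that follows. A single fit of all 12 libraries gave 41 genes, each of them among the 950.

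Across 134 named genes, of which 109 passed, the calls varied in the same way. Of the 109, 9 passed without any 1 of the libraries, 11 passed without IM649, 36 to 57 without IM648, IM659, IM660 or IM650, and 106 without IM661. Every one of the 109 kept its direction in these fits, which the lack of overlap again nearly fixed in advance. With the non-exonic share as a covariate 16 of the 109 changed sign, among them Eno1, Ldha, Cxcr4, Cd74, C1qa, Ccl3 and Rplp0.

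**Figure D2:**
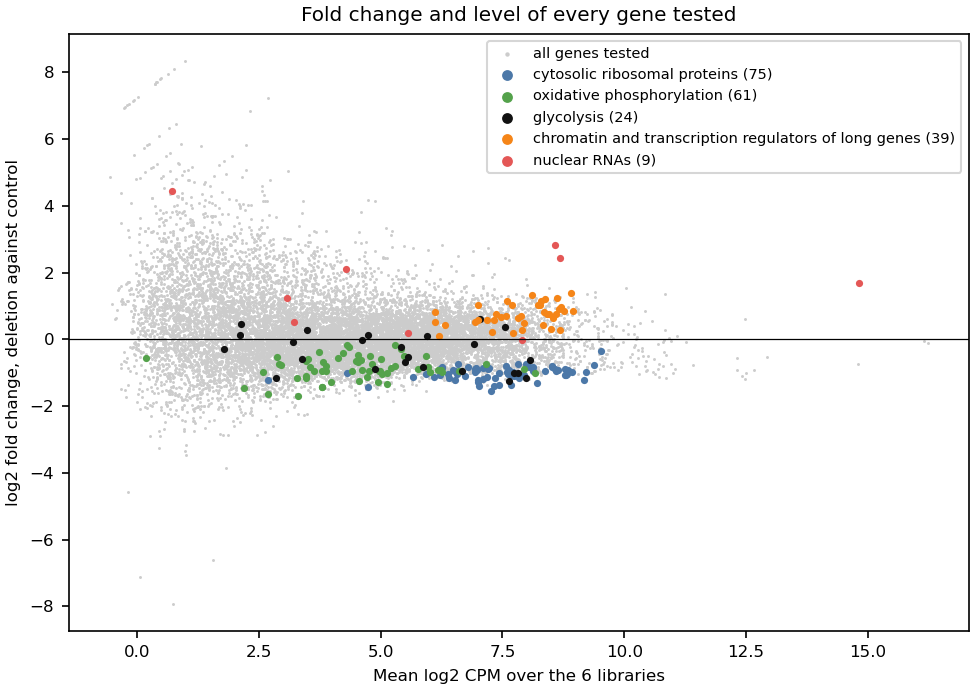
Fold change of each of the 13566 genes tested against its level. The x axis is the mean log2 CPM over the 6 libraries and the y axis the log2 fold change of deletion against control from the fit; coloured points are members of 5 gene lists. Ribosomal protein and oxidative phosphorylation genes lie below 0 and the chromatin and transcription regulators above it.

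Several glycolytic enzymes were lower in the deletion libraries. Of 24 glycolysis genes tested, 6 fell and none rose, against 2.96% of all genes that fell. The median change over the list was -0.41 on the log2 scale, beside 0.05 over all genes. Gapdh, which oxidises glyceraldehyde phosphate (chromosome 6, 125161852 to 125166467), was at 338, 331 and 381 CPM in the controls and 174, 165 and 135 CPM in the deletion libraries. All deletion libraries lay far below the lowest control, and the change was 2.21-fold (log2 fold change -1.15, SE 0.17, adjusted p = 0.00651). Eno1, the enolase that forms phosphoenolpyruvate (chromosome 4, 150236708 to 150248879), was at 248, 289.9 and 304 CPM against 105, 93.3 and 156 CPM. IM661 was the highest of the deletion libraries and still lay well below IM648, the lowest control (log2 fold change -1.25, SE 0.21, adjusted p = 0.00911).

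Ldha encodes the subunit of lactate dehydrogenase that favours lactate (chromosome 7, 46842274 to 46855627). It was at 112, 155 and 136 CPM in the controls and 63.3, 57.6 and 86.0 CPM in the deletion libraries, a 1.95-fold difference with no overlap (log2 fold change -0.96, SE 0.21, adjusted p = 0.024). Pgam1, a phosphoglycerate mutase (chromosome 19, 41911871 to 41918665), was at 77.5, 75.3 and 70.7 CPM against 44.4, 41.2 and 39.7 CPM, and spread little within either group (log2 fold change -0.83, SE 0.21, adjusted p = 0.0356). The aldolase Aldoa fell to 148 ± 14.9 CPM from 301 ± 21.5 CPM (log2 fold change -1.02, SE 0.16, adjusted p = 0.00711). Gpi1, glucose phosphate isomerase, fell to 142 ± 19.3 CPM from 285 ± 27.8 CPM (log2 fold change -1.01, SE 0.17, adjusted p = 0.00954). These genes have processed copies elsewhere in the genome, and how reads shared with them were counted is not given, so their levels are uncertain to that extent.

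Glucose uptake, its first phosphorylation and some later steps gave no call. The hexokinase Hk2 was at 138, 97.4 and 76.9 CPM in the controls and 141, 166 and 167 CPM in the deletion libraries, which were all higher, without passing (log2 fold change 0.60, SE 0.22, adjusted p = 0.131). The glucose transporter Slc2a1 was at 27.7 ± 2.82 against 25.2 ± 4.73 CPM, with the groups overlapping (log2 fold change 0.13, SE 0.29, adjusted p = 0.843). Pfkl, a phosphofructokinase subunit, and Pgk1, a phosphoglycerate kinase, had log2 fold changes of -0.68 and -0.54 and did not pass (adjusted p = 0.126 and 0.238). Of the 6 enzymes that fell, Gapdh passed without any 1 of the libraries. Without IM649 the list's count was 1, and without IM661 it was 8.

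HIF-1 binds a short core, ACGTG or GCGTG, in the control regions of its targets, and 4 promoter windows that hold such letters are printed to show where they lie, from genes that fell. The 250 bases before a RefSeq start are given for Ldha (chr7:46845554-46845803, plus strand), Gapdh (chr6:125165774-125166023, minus strand), Pgam1 (chr19:41911621-41911870, plus strand) and Cxcr4 (chr1:128592300-128592549, minus strand), all on GRCm38.p6. They read 5′ to 3′ along the gene, with each core in capitals, CACGT and CACGC being its form on the other strand.
Ldha: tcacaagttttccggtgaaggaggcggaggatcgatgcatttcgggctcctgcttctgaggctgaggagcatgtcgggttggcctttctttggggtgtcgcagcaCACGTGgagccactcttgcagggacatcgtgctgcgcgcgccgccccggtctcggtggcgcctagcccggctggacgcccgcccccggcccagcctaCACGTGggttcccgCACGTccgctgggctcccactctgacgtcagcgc
Gapdh: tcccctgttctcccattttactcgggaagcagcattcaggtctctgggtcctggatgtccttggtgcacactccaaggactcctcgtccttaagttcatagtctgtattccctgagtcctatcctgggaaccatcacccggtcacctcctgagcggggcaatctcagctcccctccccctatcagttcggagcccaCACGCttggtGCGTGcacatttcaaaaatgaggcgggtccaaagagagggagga
Pgam1: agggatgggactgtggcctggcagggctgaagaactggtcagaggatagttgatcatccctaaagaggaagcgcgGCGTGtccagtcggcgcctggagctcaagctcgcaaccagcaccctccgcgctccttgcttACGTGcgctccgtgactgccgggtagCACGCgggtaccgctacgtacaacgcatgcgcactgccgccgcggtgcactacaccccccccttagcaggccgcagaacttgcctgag
Cxcr4: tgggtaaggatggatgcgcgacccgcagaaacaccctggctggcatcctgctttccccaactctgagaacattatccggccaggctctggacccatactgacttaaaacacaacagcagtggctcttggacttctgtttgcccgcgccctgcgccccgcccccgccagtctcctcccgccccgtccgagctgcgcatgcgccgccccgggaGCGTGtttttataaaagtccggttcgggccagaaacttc
The Ldha window has 5 matches, since each CACGTG holds a core on both strands, and the nearest match lies 34 bases before the start. The windows of Gapdh, Pgam1 and Cxcr4 have 2, 3 and 1 matches. Of windows not printed, a further one of Ldha has 1 match, that of Gpi1, which also fell, has 0, and of the 3 of Aldoa 1 has 0 matches. A core on either strand was found in 29 of the 36 promoter windows of the tested glycolysis genes (80.6%), in 54.1% of the windows of all genes tested and in 38.6% of all windows in the table. Genes that fell (56.4%) and genes that rose (57.2%) held it in nearly the same share of their windows. Binding was not measured, and a match describes letters only.

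Other components of the HIF pathway and targets outside glycolysis changed in few places. Of 15 pathway genes 1 rose (6.67%, near the 4.05% of all genes) and none fell. It was Crebbp, a co-activator that HIF-1 recruits, which rose from 239, 252 and 264 CPM to 460.2, 458 and 359.9 CPM (log2 fold change 0.76, SE 0.16, adjusted p = 0.0213). Epas1, which encodes the HIF-2 subunit, ranged widely and overlapped (998 ± 648.9 against 720.1 ± 394 CPM, log2 fold change 0.47, SE 0.62, adjusted p = 0.726). Epas1 is also abundant in endothelium, and its highest and lowest libraries in each group were those of the summed endothelial markers. The part of endothelial transcripts in the level of Epas1 was not tested. Egln1, a prolyl hydroxylase and itself a hypoxia target, was -0.42 on the log2 scale (adjusted p = 0.373).

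Among 37 other HIF targets 2 (5.41%) fell, Cxcr4 and Narf, a share near the 2.96% of all genes that fell, and the list's median was -0.26. Cxcr4, the receptor of the chemokine CXCL12 (chromosome 1, 128588199 to 128592299), was at 434, 317 and 425 CPM in the controls and 177, 126 and 264 CPM in the deletion libraries. Even IM661, the highest of these, lay below the lowest control (log2 fold change -1.05, SE 0.25, adjusted p = 0.0336). Narf, a nuclear protein that binds prelamin, fell 2.99-fold to 8.39 ± 2.19 CPM from 25.1 ± 3.76 CPM (log2 fold change -1.58, SE 0.37, adjusted p = 0.0293). Neither call held without IM649, without IM650 or without any 1 of the controls. Vegfa, the endothelial growth factor, was at 91.3, 59.5 and 47.1 CPM and 87.4, 109.8 and 125 CPM in control and deletion libraries, with overlap (log2 fold change 0.70, SE 0.26, adjusted p = 0.134), and the demethylase gene Kdm3a was at 105 ± 7.64 against 70.5 ± 10.5 CPM (log2 fold change 0.58, SE 0.19, adjusted p = 0.0993). Both differences pointed up and neither passed.

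**Figure D3:**
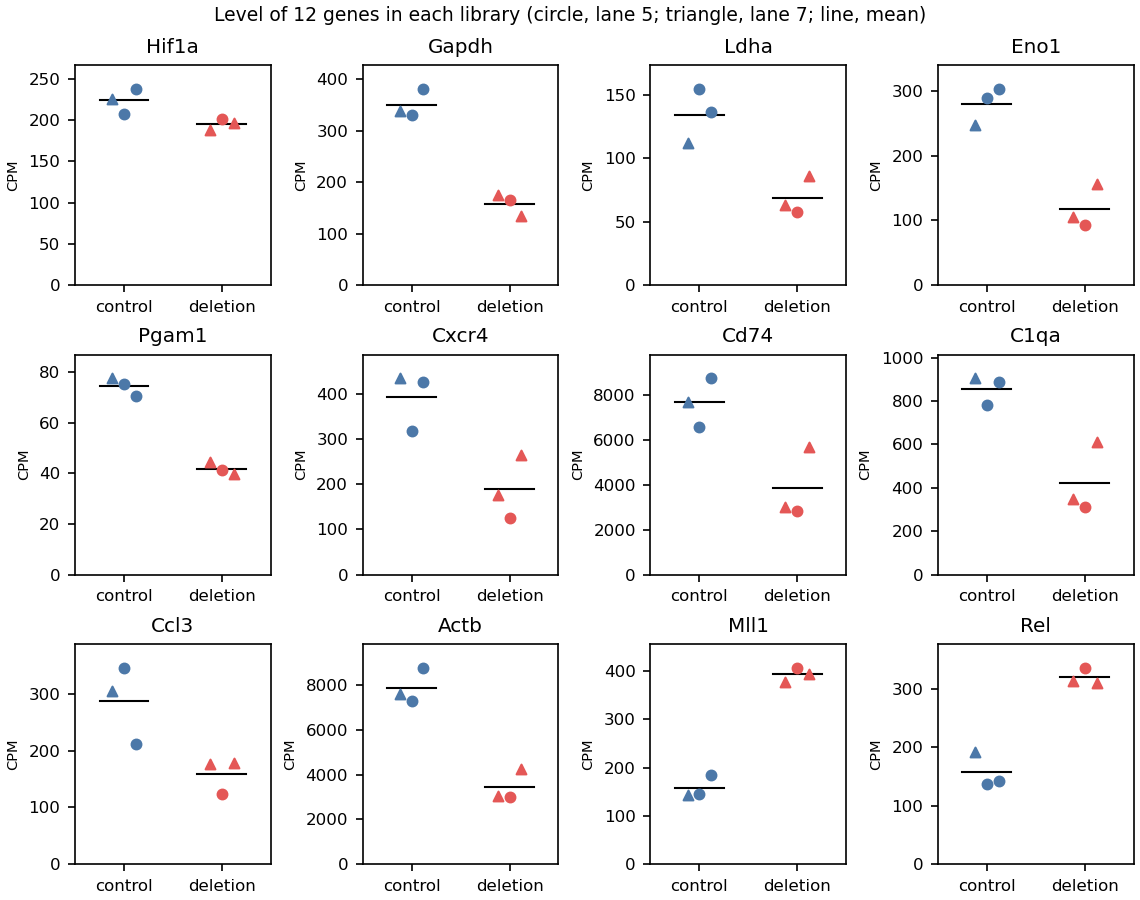
CPM of 12 genes in each library, by genotype, with shape giving the lane and the line the mean; every y axis starts at 0. Gapdh, Ldha, Eno1, Pgam1, Cxcr4, Cd74, C1qa, Ccl3 and Actb lie lower in all 3 deletion libraries, Mll1 and Rel lie higher in all 3, and Hif1a shows a small gap.

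Nuclear genes of mitochondrial respiration were also lower. All 61 nuclear genes of oxidative phosphorylation that were tested had a log2 fold change below 0, compared with 47.8% of all genes. The list's median was -0.88, and 13 of the 61 fell (21.3%, beside 2.96% of all genes). Atp5b, the catalytic subunit of ATP synthase, was at 346, 392 and 410.3 CPM in the controls and 186, 207 and 175 CPM in the deletion libraries (log2 fold change -1.02, SE 0.16, adjusted p = 0.00698). Cox6a1, of cytochrome oxidase, fell to 19.8 ± 4.35 CPM from 50.3 ± 4.73 CPM (log2 fold change -1.35, SE 0.28, adjusted p = 0.0183). Sdha, which joins the respiratory chain to the citrate cycle, fell 1.68-fold, and Ndufv2 of complex I fell 2.05-fold (adjusted p = 0.0235 and 0.0433). Without IM649 no oxidative phosphorylation gene passed in edgeR's fit (31 had an unadjusted p under 0.05), and all 13 lost the call.

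In the citrate cycle 3 of 23 genes fell (13%, beside 2.96% of all genes). They were the isocitrate dehydrogenase genes Idh1 (-0.86) and Idh3g (-1.12) and the malate dehydrogenase Mdh2 (-0.77, log2 fold changes). In the pentose phosphate and redox list 5 of 23 fell (21.7%), Tkt, Taldo1, Pgd, Prdx1 and Sod1, and none rose. Tkt, the transketolase of the pentose phosphate pathway, was at 170.1, 216 and 168 CPM in the controls and 81.7, 84.1 and 85.6 CPM in the deletion libraries (log2 fold change -1.14, SE 0.18, adjusted p = 0.00694). Prdx1, a peroxiredoxin that clears peroxide, fell to 86.5 ± 2.88 CPM from 183 ± 27.8 CPM (log2 fold change -1.08, SE 0.18, adjusted p = 0.00807), and Pgd, which makes NADPH, fell 1.79-fold (adjusted p = 0.0223). These 3 genes varied little among the deletion libraries.

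Cytosolic ribosomal protein genes had the largest share of called members of any list. Of 75 ribosomal protein genes tested 63 fell (84%, beside 2.96% of all genes). All 75 had a log2 fold change below 0, and the median was -0.99. Rps26, a small subunit protein, was at 206, 258 and 221 CPM in the controls and 77.3, 70.6 and 88.4 CPM in the deletion libraries (log2 fold change -1.53, SE 0.18, adjusted p = 0.00346). Rpl37, of the large subunit, was at 301, 304 and 276 CPM against 99.4, 123 and 117 CPM (log2 fold change -1.37, SE 0.16, adjusted p = 0.00346). Rps27 fell by 1.39 on the log2 scale, and each of these 3 genes passed without any 1 of the libraries.

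Rplp0, a stalk protein of the large subunit, showed the wider spread of IM661, with 231, 226 and 409 CPM in the deletion libraries against 598, 593 and 624 CPM in the controls (log2 fold change -1.07, SE 0.22, adjusted p = 0.0204). Rpl12 of the same stalk fell 2.56-fold, and the elongation factor Eef1a1, which no list holds, fell to 1149.6 ± 191 CPM from 2555 ± 41.3 CPM (log2 fold change -1.15, SE 0.16, adjusted p = 0.00645). Ribosomal protein genes have many processed copies, so single levels are uncertain. The list's count was 5 without IM649 and between 26 and 73 without another library. Proteasome subunits had a median of -0.59, and 2 of 35, Psma6 and Psmc3, fell (5.71%, beside 2.96% of all genes).

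Actin and its regulators were lower. In the actin cytoskeleton list 17 of 38 genes fell (44.7%, beside 2.96% of all genes), none rose, and the median was -0.75. Actb, cytoplasmic actin, was at 7605, 7284 and 8789 CPM in the controls and 3068, 3021 and 4269 CPM in the deletion libraries (log2 fold change -1.19, SE 0.18, adjusted p = 0.00651). Arpc4, a subunit of the complex that branches actin filaments, was at 137, 115 and 119 CPM against 45.3, 46.0 and 65.0 CPM (log2 fold change -1.25, SE 0.21, adjusted p = 0.00911). Rhoa, the GTPase that sets contractility, was nearly equal in the deletion libraries, at 343, 347 and 359 CPM against 685, 744 and 709 CPM (log2 fold change -1.03, SE 0.14, adjusted p = 0.00645). Without IM649 no gene of the list passed in edgeR's fit (27 had an unadjusted p under 0.05).

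Lysosomal genes fell in 15 of 40 cases (37.5%, beside 2.96% of all genes), with none that rose and a median of -0.67. Lamp1, the main membrane protein of lysosomes, was at 1125, 1122 and 1159 CPM in the controls and 721, 612 and 574 CPM in the deletion libraries, with no overlap (log2 fold change -0.84, SE 0.15, adjusted p = 0.0116). The proteases Ctsd and Ctss fell 1.85-fold and 2.01-fold, the acid lipase Lipa 2.02-fold and the saposin precursor Psap 1.85-fold (adjusted p = 0.0165, 0.0104, 0.0218 and 0.0226). The count was 1 without IM649. It was 5 when libraries were scaled to their total gene counts in place of TMM.

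Genes that load and present antigen were lower. In the MHC class II list 4 of 13 fell (30.8%, beside 2.96% of all genes). Of the 13, 12 had a change below 0 (median -0.90), compared with 47.8% of all genes. Cd74, the invariant chain, was at 7703, 6562 and 8738 CPM in the controls and 3004, 2828 and 5685 CPM in the deletion libraries, with IM661 closest to the controls (log2 fold change -1.0, SE 0.26, adjusted p = 0.0447). H2-DMa, which exchanges peptides, fell to 76.0 ± 22.4 CPM from 148 ± 28.2 CPM (log2 fold change -0.96, SE 0.24, adjusted p = 0.0341), and the protease Lgmn fell 1.54-fold; Ctss was the other gene that passed. H2-Aa, a class II chain, was at 728, 755 and 1627 CPM against 2125, 1833 and 2420.2 CPM and did not pass (log2 fold change -1.04, SE 0.30, adjusted p = 0.0722). For class I 4 of 15 fell (26.7%). B2m, the light chain, was at 887, 812 and 984 CPM in the controls and 538, 466 and 371 CPM in the deletion libraries (log2 fold change -0.96, SE 0.18, adjusted p = 0.0117), and Tapbp, which holds class I at the peptide transporter, fell 1.95-fold. The other two were H2-T23 and Pdia3, with log2 fold changes of -0.97 and -0.66. Class I heavy chain genes share much sequence, and their levels are uncertain for that reason. No gene of either list passed without IM649 in edgeR's fit (5 class II and 6 class I genes were lower at an unadjusted p under 0.05), whereas 9 of each passed without IM661.

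Complement made by macrophages, and the receptors that sense it, fell in 5 of 19 genes (26.3%, beside 2.96% of all genes). The list's median was -0.52. C1qa and C1qc encode chains of C1q, which tags debris for uptake. C1qa was at 905, 781 and 886 CPM in the controls and 348, 314 and 611 CPM in the deletion libraries (log2 fold change -1.02, SE 0.24, adjusted p = 0.0287). C1qc was at 884, 753 and 950.1 CPM against 374, 361 and 545 CPM (log2 fold change -1.01, SE 0.19, adjusted p = 0.0133). The anaphylatoxin receptor genes C3ar1 and C5ar1 fell to 357 ± 27.8 CPM from 578 ± 24.2 CPM and 185 ± 14.6 CPM from 318 ± 13.8 CPM (log2 fold changes -0.70 and -0.78, adjusted p = 0.0215 and 0.0146). Properdin, encoded by Cfp, fell 1.91-fold. All 5 lost the call without IM648, without IM660 or without IM649.

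Fc and inhibitory receptor genes fell in 7 of 28 cases (25%, beside 2.96% of all genes), with a list median of -0.71. Fcer1g and Tyrobp, the adaptors through which many activating receptors of myeloid cells signal, were at 95.6 ± 8.64 against 191 ± 14.1 CPM and 70.0 ± 12.4 against 148 ± 6.42 CPM (log2 fold changes -1.0 and -1.08, adjusted p = 0.00911 and 0.0107). The IgG receptor gene Fcgr3 fell 1.76-fold and the lectin Clec12a 1.96-fold. The list's count was 0 without IM649 in edgeR's fit (15 lower at an unadjusted p under 0.05) and 15 without IM661. Of 31 chemoattractant receptors and integrins 5 fell (16.1%), C3ar1, C5ar1, Cxcr4, P2ry6 and P2ry13. P2ry13, a nucleotide receptor, was at 56.1, 97.8 and 72.6 CPM in the controls and 35.3, 43.8 and 33.6 CPM in the deletion libraries. Of 18 Toll-like receptors 1 fell (5.56%, beside 2.96% of all genes). It was Tlr13, which senses bacterial ribosomal RNA (log2 fold change -0.80, SE 0.19, adjusted p = 0.0283).

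Few inflammatory mediators, and few of the NF-kB genes that govern them, passed. Of 32 cytokines and chemokines 2 fell (6.25%, beside 2.96% of all genes), none rose, and the median was -0.38. Of the 32, 30 had a change below 0, compared with 47.8% of all genes. Ccl3, which recruits monocytes, was at 305, 346 and 212 CPM in the controls and 177, 123 and 178 CPM in the deletion libraries (log2 fold change -0.85, SE 0.22, adjusted p = 0.0411). Ccl9, a chemokine of rodent myeloid cells, was at 465, 462 and 401 CPM against 292, 225 and 273 CPM (log2 fold change -0.75, SE 0.16, adjusted p = 0.0232). Tnf lay below the controls in every deletion library without passing, at 149.98, 124 and 232 CPM against 403, 316 and 237 CPM (log2 fold change -0.92, SE 0.26, adjusted p = 0.059). Il1b, Cxcl2, Ccl2 and Ccl4 overlapped between the groups, with log2 fold changes of -0.53, -0.05, -0.34 and -0.99. No gene of the list passed without IM648, IM659 or IM650 in edgeR's fits (3, 5 and 4 lower at an unadjusted p under 0.05). Cxcl2 turned positive without IM648 (0.18) and without IM650 (0.12).

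In the NF-kB list 4 of 29 genes rose, none fell, and the median was 0.32, beside 4.05% of all genes that rose. Rel, the c-Rel subunit, was at 192, 137 and 143 CPM in the controls and 313, 337 and 310.3 CPM in the deletion libraries, a 2.03-fold rise (log2 fold change 1.02, SE 0.18, adjusted p = 0.00984). Nfkb1, the p105 precursor, rose to 278 ± 36.4 CPM from 181 ± 8.56 CPM (log2 fold change 0.61, SE 0.16, adjusted p = 0.0453). Birc3, an inhibitor of cell death, and Tnip3, which restrains the pathway, rose 1.57-fold and 2.03-fold. The feedback inhibitors Nfkbia and Tnfaip3 overlapped (log2 fold changes -0.55 and -0.15), and Tnfaip3 turned to 0.05 without IM648. Without IM661 5 rose and 2 fell, 16 of 29 had a change above 0, and the median was 0.038. None of the 29 passed without IM649 (edgeR, 10 higher at an unadjusted p under 0.05), and 1 passed with lane as a covariate.

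In the inflammasome and interleukin-1 list 2 of 19 genes rose (10.5%, beside 4.05% of all genes), the inflammatory caspase Casp4 and the sensor Nlrp1b. Casp4 was at 59.3, 15.9 and 44.6 CPM in the controls and 151, 158 and 97.4 CPM in the deletion libraries (log2 fold change 1.76, SE 0.43, adjusted p = 0.0455). Nlrp1b spread more, with 60.4, 27.3 and 111 CPM against 14.9, 25.8 and 16.5 CPM, and IM650 near the highest control (log2 fold change 1.80, SE 0.46, adjusted p = 0.0471). No gene of the list rose with lane as a covariate, nor without IM648, IM660, IM649 or IM661, and without IM661 2 fell. The sensor Nlrp3 overlapped (856 ± 309.6 against 481 ± 190.0 CPM, log2 fold change 0.83, SE 0.32, adjusted p = 0.165). No interferon response gene of 37 passed in edgeR's test (8 had an unadjusted p under 0.05, 4 in each direction), and none passed with DESeq2 or limma-voom, but without IM661 edgeR called 2 higher and 3 lower. Of 20 alternative activation genes none passed with edgeR (3 lower at an unadjusted p under 0.05), whereas 3 fell with DESeq2 and 3 with limma-voom.

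**Figure D4:**
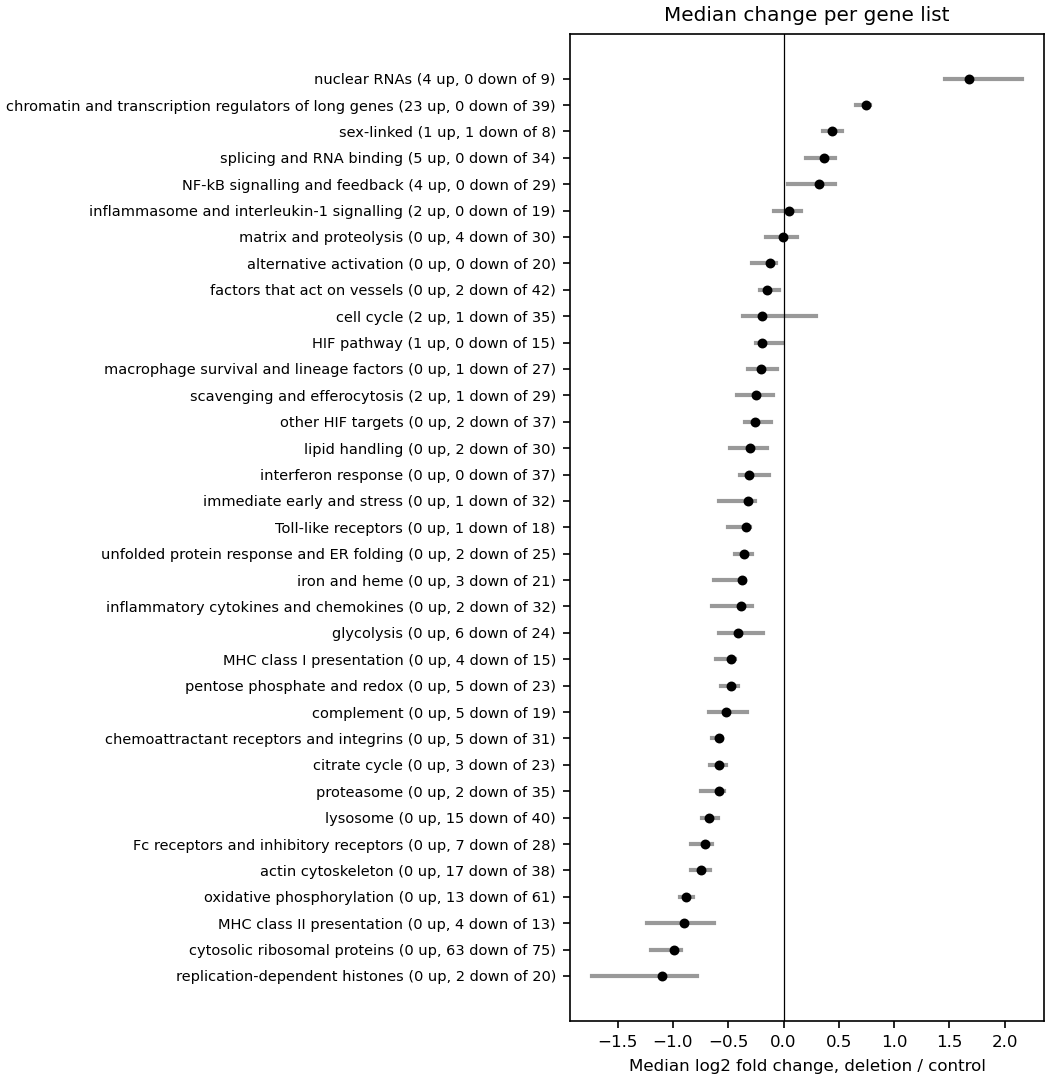
Median log2 fold change of deletion against control for the tested genes of each function list, with the number that rose and fell beside its name. Points are the fit of 6 libraries and bars span the medians when 1 library at a time is left out, each over the genes that fit tests. Nuclear RNAs and the chromatin regulators keep a median above 0, ribosomal proteins and oxidative phosphorylation one below 0, and the cell cycle bar crosses 0.

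Transcripts that stay in the nucleus, and genes that encode chromatin regulators, were higher. Of 9 nuclear RNAs 4 rose (44.4%, beside 4.05% of all genes), Malat1, Neat1, Kcnq1ot1 and Pvt1. Neat1, which scaffolds nuclear paraspeckles, was at 100.2, 90.0 and 93.9 CPM in the controls and 423, 374 and 1224 CPM in the deletion libraries, with IM661 far above the others (log2 fold change 2.83, SE 0.46, adjusted p = 0.0154). Kcnq1ot1, an imprinted antisense RNA, was at 137, 75.9 and 169 CPM against 802, 897 and 371 CPM, and here IM661 was the lowest of the deletion libraries (log2 fold change 2.44, SE 0.39, adjusted p = 0.0132). It overlaps Kcnq1 on the other strand, and the strand setting of the counting is not given. Malat1, a long RNA of nuclear speckles, rose 3.20-fold and Pvt1 4.34-fold (adjusted p = 0.00651 and 0.0217).

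Of 39 chromatin and transcription regulators 23 rose (59%), none fell, and all 39 had a change above 0 (median 0.74). The list was put together from long genes and, like the others, with earlier results of these data known. Its count is therefore a description only. Beside it, 4.05% of all genes rose, and 10.7% of the fifth of genes with the longest span, where the median was 0.46. Mll1, a histone H3 lysine methyltransferase now named Kmt2a, was at 142, 146 and 184 CPM in the controls and 378, 406 and 395 CPM in the deletion libraries (log2 fold change 1.32, SE 0.17, adjusted p = 0.00378). Its relative Mll3, now Kmt2c, was at 321, 169.7 and 304 CPM against 729, 769.8 and 569 CPM (log2 fold change 1.38, SE 0.24, adjusted p = 0.0102). Chd2, a chromatin remodeller, was almost equal in the deletion libraries, at 432, 428 and 425 CPM against 184, 219.7 and 177 CPM (log2 fold change 1.15, SE 0.16, adjusted p = 0.00604). Ankrd11 and Ash1l rose 2.35-fold and 2.31-fold, and Tet2, which oxidises methylcytosine, 2.19-fold. The corepressor Ncor1 rose 1.80-fold, while Ep300, the partner of Crebbp, did not pass (log2 fold change 0.31, SE 0.18, adjusted p = 0.36). Without IM649 the count was 1, and without another library it was between 11 and 28.

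RNA-processing genes rose in 5 of 34 cases (14.7%, beside 4.05% of all genes), with a list median of 0.36. Srrm2 and Son, scaffolds of nuclear speckles, were at 1069.8 ± 25.5 against 641 ± 30.1 CPM and 919 ± 80.8 against 626 ± 12.3 CPM (adjusted p = 0.0139 and 0.0453). Rbm25, the kinase Clk1 and Sfrs18, now named Pnisr, rose 1.93-fold, 1.69-fold and 2.69-fold. None of the list passed without IM649 in edgeR's fit (12 higher at an unadjusted p under 0.05).

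The direction of change varied with gene length across the genes tested. In the fifth of genes with the shortest span, up to 7935 bp from first to last annotated base, the median log2 fold change was -0.33, 1.79% rose and 5.97% fell. In the fifth with the longest span, from 69994 bp, the median was 0.46, 10.7% rose and 0.418% fell. Genes that rose had a median span of 79625 bp and those that fell 11547 bp, beside 23749 bp for all genes with a known length. Summed exon length gave the same order, from -0.35 to 0.43. The 477 long noncoding RNAs had a median of 1.16, with 46 that rose (9.64%) and 2 that fell, whereas the 12436 protein-coding genes had 452 that rose (3.63%) and 394 that fell. A median well above 0 was not particular to long noncoding RNAs. It was 0.93 for 156 pseudogenes, 1.09 for 73 small RNAs and others and 0.96 for 424 genes without a matched type. Of these classes 7.69%, 4.11% and 8.49% rose. These are descriptions across genes, which are not independent replicates, and the part of gene length in the counts of the lists was not tested.

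**Figure D5:**
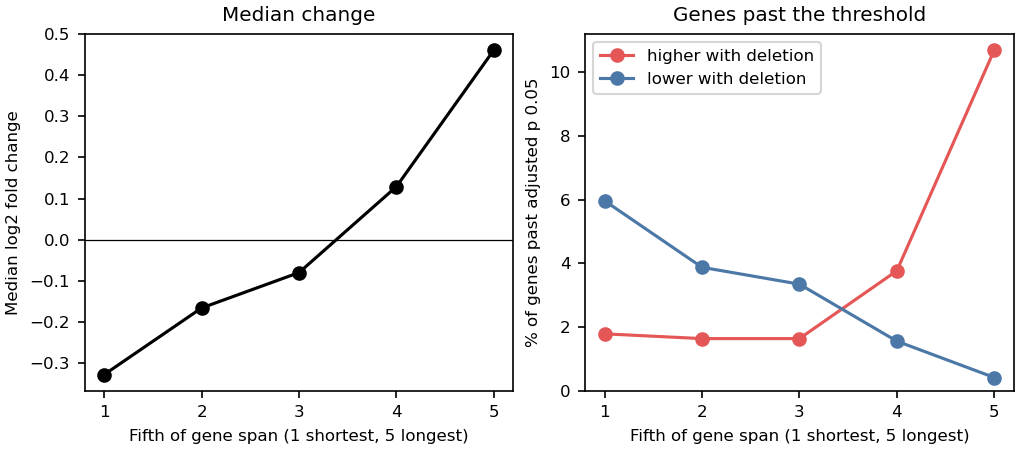
Change by gene span, from the fifth of genes that span least (1) to the fifth that spans most (5). The left panel gives the median log2 fold change of deletion against control, which runs from -0.33 to 0.46, and the right panel the percentage of genes that rose or fell.

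Besides Neat1 and Kcnq1ot1, large rises among genes of at least 4 in mean log2 CPM included several genes that were low in the controls. Lrrtm2, a synaptic adhesion protein, was at 2.93, 0.650 and 6.02 CPM in the controls and 42.5, 59.1 and 32.7 CPM in the deletion libraries (log2 fold change 3.81, SE 0.66, adjusted p = 0.0129). Muc6, a gel-forming mucin of the stomach (chromosome 7, 141633459 to 141655393), was at 5.50, 4.41 and 8.84 CPM against 68.8, 61.8 and 57.6 CPM, a tight 10.04-fold rise (log2 fold change 3.33, SE 0.33, adjusted p = 0.00275). Megf11, Tbrg3 and Fam196b rose 8.75-fold, 6.84-fold and 6.40-fold. Zfp488 rose from 58.3 ± 26.5 CPM to 316 ± 74.3 CPM (log2 fold change 2.44, SE 0.37, adjusted p = 0.0096), and Baiap2l1, an adaptor of membrane protrusions, rose 5.36-fold. Muc6, Tbrg3 and Baiap2l1 passed without any 1 of the libraries.

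The largest falls were smaller. Hist1h4d, a histone H4 gene, was at 49.9, 56.7 and 71.0 CPM in the controls and 12.3, 10.6 and 26.0 CPM in the deletion libraries (log2 fold change -1.86, SE 0.36, adjusted p = 0.0142). Replication-dependent histones had a median of -1.10, and all 20 were below 0, compared with 47.8% of all genes. Of the 20, 2 fell, Hist1h4d and Hist2h2ac (10%, beside 2.96% of all genes). The near-identical copies of histone genes make single genes uncertain. Bub3, of the spindle checkpoint, was at 36.9, 54.6 and 48.8 CPM against 17.1, 14.9 and 10.3 CPM (log2 fold change -1.73, SE 0.31, adjusted p = 0.0116). Lgals1, a secreted galectin that modulates immune cells, fell 2.92-fold (log2 fold change -1.55, SE 0.28, adjusted p = 0.0122). Ramp1, a partner of the receptor of the vasodilator CGRP, was at 44.8, 56.7 and 53.8 CPM in the controls and 22.4, 10.3 and 20.3 CPM in the deletion libraries (log2 fold change -1.55, SE 0.33, adjusted p = 0.0206), and Aurkaip1, a mitochondrial ribosome protein, fell 3.07-fold. In the cell cycle list 2 of 35 rose (5.71%) and 1 fell (2.86%), near the 4.05% and 2.96% of all genes. The genes called were the proliferation marker Mki67 (0.94), the thymidylate synthase Tyms (1.74) and, lower, the replication helicase subunit Mcm6 (-0.98, log2 fold changes). They are not read as a result about the list.

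Products that act on vessels and matrix are of interest in a lung exposed to hypoxia and SU5416. Of 42 factors that act on vessels 2 (4.76%) fell and none rose (median -0.15), a share near that of all genes that fell. Lgals3, galectin-3, was at 475, 543 and 569 CPM in the controls and 272, 206 and 352 CPM in the deletion libraries (log2 fold change -0.94, SE 0.20, adjusted p = 0.0218). Alox5ap, needed for leukotriene synthesis, was at 40.6, 49.8 and 57.5 CPM against 23.2, 21.7 and 27.3 CPM (log2 fold change -1.03, SE 0.27, adjusted p = 0.0411). The growth factor Igf1 did not pass (270.1 ± 51.8 against 340.0 ± 10.96 CPM, log2 fold change -0.33, SE 0.18, adjusted p = 0.298). In the matrix and proteolysis list 4 of 30 fell (13.3%, beside 2.96% of all genes). They were Serpinb6a, Ecm1, the adhesion protein Tgfbi (949 ± 207 against 1825 ± 207 CPM, log2 fold change -0.94, SE 0.18, adjusted p = 0.0142) and the collagenase Mmp8 (23.5 ± 7.41 against 61.0 ± 10.5 CPM, log2 fold change -1.38, SE 0.29, adjusted p = 0.0204). Of 21 iron and heme genes 3 fell (14.3%), the ferritin chains Fth1 and Ftl1 and the biliverdin reductase Blvrb (-1.31 on the log2 scale). The ferritin heavy chain Fth1 was at 3261, 3422 and 3593 CPM in the controls and 1903, 1756 and 2311 CPM in the deletion libraries (log2 fold change -0.78, SE 0.16, adjusted p = 0.0165).

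Several further lists gave few calls. Of 29 scavenging and efferocytosis genes Mertk and Dock1 rose (6.9%) and Cd68 fell (3.45%). Of 30 lipid handling genes Lipa and Pltp fell (6.67%), and of 32 immediate early and stress genes the GTPase gene Rhob fell (3.12%). Of 25 genes of the unfolded protein response and ER folding the disulfide isomerases Pdia3 and Pdia4 fell (8%). Of all genes 4.05% rose and 2.96% fell, so these few calls are not read as results about the lists.

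The macrophage's own markers were mostly lower. Of 31 interstitial macrophage markers 7 fell (22.6%) and 1 rose (3.23%), beside 2.96% and 4.05% of all genes. A change below 0 was found for 26 of the 31, compared with 47.8% of all genes. The list's median was -0.64, and its summed level was 41135 to 46926 CPM in the controls and 23756 to 31795 CPM in the deletion libraries. Lyz2, lysozyme, was at 8501, 7883 and 9203 CPM against 5515, 4409 and 3647 CPM (log2 fold change -0.92, SE 0.18, adjusted p = 0.0146), and Cd68, a lysosomal glycoprotein of macrophages, fell 1.68-fold. Mertk, the receptor that engulfs dying cells, moved the other way, at 242, 185 and 247 CPM in the controls and 378, 352 and 366 CPM in the deletion libraries (log2 fold change 0.70, SE 0.17, adjusted p = 0.0297). Dock1, which drives the engulfing membrane downstream of such receptors, rose 2.15-fold (log2 fold change 1.10, SE 0.22, adjusted p = 0.0171). Of 27 lineage factors only Cebpa passed (3.7%, near the 2.96% of all genes that fell). It was at 111 ± 42.6 against 208 ± 13.2 CPM (log2 fold change -0.91, SE 0.25, adjusted p = 0.0499). The call rested on values close to the threshold and was lost without robust estimation of the dispersion.

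Markers of other cells differed in how they moved. Alveolar macrophage markers were mostly lower, with 16 of 18 below 0 (beside 47.8% of all genes) and a median of -0.56. Their summed level was 4240 to 4820 CPM in the controls and 2439 to 4787 CPM in the deletion libraries. None of the 18 passed in edgeR's test (4 lower at an unadjusted p under 0.05), DESeq2 called 2 lower and limma-voom 1, and without IM649 the median was -1.12. The summed endothelial markers were at 1467 to 4519 CPM in the controls and 1546 to 5783 CPM in the deletion libraries, and none of 25 passed with edgeR, DESeq2 or limma-voom, nor reached an unadjusted p under 0.05. The epithelial sum was 1130 to 2622 CPM against 437 to 2566 CPM, with IM661 lowest, and none of 21 passed in edgeR's test (2 at an unadjusted p under 0.05), while DESeq2 called 1 lower. Fibroblast and smooth muscle markers summed to 1112 to 1296 CPM against 866 to 1420 CPM. Summed levels of T and NK cell, B cell and neutrophil markers stayed under 326 CPM in every library, and the defining markers Ncr1, Retnlg and Ly6g had no count in any. Nonclassical monocyte markers summed to 3335 to 3821 CPM in the controls and 2713 to 2929 CPM in the deletion libraries, without overlap. Of the 22 tested 1 fell, Lair1 (4.55%, near the 2.96% of all genes). In the dendritic cell list 1 of 16 genes rose (6.25%, near the 4.05% of all genes), Clec9a, a receptor for dead cells. The list had 9 genes with a change below 0 and a median of -0.17. None of its genes rose with limma-voom, with lane as a covariate or without robust estimation. With 1 library left out, a gene of it rose only without IM661. In the classical monocyte list 11 of 16 had a change below 0 (median -0.26, which turned to 0.13 without IM661). Ccl9 and Mmp8 fell (12.5%, beside 2.96% of all genes) and 1 gene rose (6.25%, near the 4.05% of all genes). That gene was Clec4e, a lectin receptor, which rose 2.12-fold (log2 fold change 1.08, SE 0.24, adjusted p = 0.0226). The part of other cells in the results was not tested.

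Whether the changes belong to interstitial macrophages was asked by testing the difference between their deletion effect and that of nonclassical monocytes, in a fit of all 12 libraries. No gene of 14254 passed (0%) in edgeR's quasi-likelihood test. An unadjusted p under 0.05 was reached by 1271 genes, and DESeq2 called 69. Without the monocyte library NCM661 of the deletion group 34 genes passed, and without NCM649 of that group 1 did. No change is therefore called particular to the macrophages. The smallest adjusted p was 0.139, of C5ar1, the receptor of complement C5a. In that fit its log2 fold change was -0.79 in the macrophages and -3.02 in the monocytes, where it was at 111, 139.6 and 98.1 CPM in the controls and 15.3, 10.6 and 16.9 CPM in the deletion libraries. Ifrd1, a transcriptional coregulator induced by many stimuli, was at 424, 296 and 299 CPM in the control macrophages and 781, 743 and 1060.1 CPM in the deletion macrophages (log2 fold change 1.34, SE 0.20, adjusted p = 0.00651). In the fit of 12 libraries its changes were 1.34 in the macrophages and -1.04 in the monocytes, and the difference did not pass (adjusted p = 0.267). Of the glycolytic genes that fell, the changes in macrophages and monocytes in that fit were -1.15 and -1.38 for Gapdh, -1.25 and -1.62 for Eno1, -0.84 and -0.96 for Pgam1, -1.01 and -1.03 for Gpi1, -0.97 and -0.40 for Ldha, and -1.03 and -0.23 for Aldoa. Hk2, which did not pass in the macrophages, had 0.60 and -1.08.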

How the data were processed

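RNA-seq libraries were made from about 250 sorted cells each with a stranded total RNA kit, per the labels' protocols. The authors deposited 1 table of raw read counts per gene for each library, with 26608 gene rows and 5 summary rows. The submitters' processing notes name cutadapt 1.12, TopHat2 2.1.1, HTSeq 0.6.0 and the GRCm38 (mm10) build. Which annotation and strand setting were used, and how multiply mapped reads were treated, is not given in the sources used here. Summary rows, which held 45.0 to 71.4% of reads in the 6 macrophage libraries, were left out of library sizes and tests, and the non-exonic share is the row of reads outside features over that row plus gene counts.

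The 6 macrophage libraries, at 7039631 to 14099509 gene counts, were fitted alone with edgeR 4.0.16 in R 4.3.3 (TMM scaling, filterByExpr with a minimum count of 10, robust quasi-likelihood F test, Benjamini-Hochberg adjustment, threshold 0.05). CPM in the text use the TMM-scaled library sizes, and fold changes and SE come from the fit. The difference of effects was an interaction term over all 12 libraries, with CPM of monocytes from that fit. Gene lengths and types came from RefSeq GRCm38.p6 and GENCODE M21, and promoter sequences from RefSeq GRCm38.p6. Alternatives were limma-voom (limma 3.58.1), DESeq2 1.42.0, other size factors and filters, thinned counts, covariates for lane and non-exonic share, and each library left out. Figures were drawn with matplotlib 3.10.9.

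Genes were named by rule: the targeted and driver genes, the 15 largest changes per direction with mean log2 CPM of at least 4 and no overlap, called and defining members of the lists (6 at most per list, or 4 by smallest p), the 5 largest differences of effect per direction and the 10 most abundant per kilobase. Gene models with systematic names were passed over, and a few further members were named after their values were seen. The members and lists were chosen with earlier results of these data known. Mitochondrially encoded genes are not analysed here.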

Additional observations from a re-analysis of the deposited data

How the results depend on the processing

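The 950 genes of the main count became 943 with DESeq2's size factors in edgeR, 996 with limma-voom, 1227 with no low-count filter, 1146 among genes of at least 4 in mean log2 CPM, 792 without robust estimation and 940 after thinning to equal depth. DESeq2 called 1663, lane as a covariate left 556, the non-exonic share as a covariate 0 (790 at an unadjusted p under 0.05), the fit of 12 libraries 41, and leaving out 1 library between 35 and 1636. Settings chosen after seeing the data were total gene counts without TMM, with 579 genes, nuclear RNA and ribosomal protein genes left out, with 806, DESeq2 for the difference of effects, and the recounts of list members. The difference in the non-exonic share was 23.3 percentage points and ranged from 20.98 to 26.31 when 1 library was left out. The difference of effects between macrophages and monocytes gave 0 genes, 69 with DESeq2, and 0 to 34 without 1 library. With the replicate number as a block it gave 0 (edgeR, 733 at an unadjusted p under 0.05). Over 5 same-numbered pairs the deviations from the group means correlated between -0.065 and 0.081, none over 0.1. So few pairs of different cell types cannot show whether same-numbered libraries share an animal. The fit without the block treats them as independent. The comparison within macrophages shares no replicate number between its groups, so no block could be fitted there. The cause of these changes was not tested.

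Of 2402 values of 134 named genes under alternatives, 1699 kept direction and side of the threshold, 642 lost the call, 28 gained it and 33 changed sign. The log2 fold change turned, with the non-exonic share as a covariate, for Cx3cr1 (0.79), Epas1 (-1.84), Kcnq1ot1 (-0.88), Fam196b (-0.55), Mll3 (-0.19), Ep300 (-0.22), Rplp0 (0.37), Eno1 (0.00079125), Ldha (0.28), Cxcr4 (0.17), Cd74 (0.40), H2-Aa (0.60), C1qa (0.42), Ccl3 (0.41), Tnf (0.66), Ccl4 (0.68), Il1b (0.99), Cxcl2 (1.38), Ccl2 (0.53), Nfkbia (1.51), Tnfaip3 (0.79), Casp4 (-0.87), Lgals3 (0.24), Csf1r (0.41), Cebpa (0.64), Hist1h4d (0.060), Tyms (-0.14) and Dock1 (-0.69). With 1 library left out Epas1 ranged from -0.16 (without IM650) to 0.87, Slc2a1 from -0.012 (without IM660) to 0.20, Cxcl2 from -0.28 to 0.18 (above 0 without IM648 and without IM650) and Tnfaip3 from -0.36 to 0.053 (without IM648). Of 844 list medians under alternatives, 775 moved by less than the spread between libraries, 45 of them across 0, 51 moved by more without a change of sign, and 18 moved by more and changed sign. The medians named next are those 18. Over genes of at least 4 in mean log2 CPM, the medians were of HIF pathway (0.20) and T and NK cell (0.15). With the non-exonic share as a covariate, they were of inflammatory cytokines and chemokines (0.51), MHC class II presentation (0.70), immediate early and stress (0.95), cell cycle (1.35), replication-dependent histones (0.082), Fc receptors and inhibitory receptors (0.074), macrophage survival and lineage factors (0.59), interstitial macrophage (0.22), dendritic cell (0.30), B cell (-1.86), endothelial (-1.73) and epithelial (-3.14). With 1 library left out the median of the cell cycle list ranged from -0.36 to 0.29 and that of the T and NK cell list from -0.52 to 0.075, both highest without IM660. The T and NK cell median was 0.17 with no low-count filter and 0.22 in the fit of 12 libraries. The filter at a minimum count of 10 sets the lower limit of what was tested.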
